A study of Homo sapiens with 19 samples.

Results

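The 9 genes followed here, in RNA-seq of the human embryonic stem cell line H1, encode inhibitors and modulators of bone morphogenetic protein (BMP), activin and NODAL signals. They were NOG, CHRD, GREM1, TWSG1, FST, FSTL3, CER1, DAND5 and BAMBI, picked by symbol, and all 9 were found among the 33382 genes listed in each of 19 samples. The study asked what loss of Polycomb repressive complex 2 (PRC2), which places the repressive H3K27me3 mark on histone H3, does to these cells. There were 2 samples each of wild-type H1 (H1 WT) and of H1 knockouts for EZH1, for EZH2, for EED, for SUZ12, and for both EZH2 and EZH1 (EZH2-/-/EZH1-/-). Every line was H1, kept in mTeSR1 on matrigel, and the knockouts were made with CRISPR/Cas9 and a targeting vector that removes a functional domain under drug selection, so a transcript of the targeted gene can persist. The titles give the samples of each knockout pair different codes, and nothing in the labels says whether the H1 WT pair came from separate cultures, so p-values measure the spread between these samples, which may be technical. The other 7 samples were H1-EED-/-/EED-OE cells, in which EED came from a doxycycline (DOX) inducible lentiviral transgene and the endogenous EED gene was knocked out. Of these, 1 sample was kept with DOX and 1 each was taken at days 8, 12, 16, 20, 24 and 28 after DOX withdrawal. The title of the +DOX sample also carries a day 28 tag, and its treatment label, +DOX, was used. The EED-/-, SUZ12-/- and EZH2-/-/EZH1-/- lines are called the 3 PRC2-null lines below, by genotype, and H1 WT, EZH1-/- and EZH2-/- the other 3 lines.

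BMPs and activins are secreted dimers that bind paired receptor kinases and signal through SMAD proteins, and NODAL uses the activin branch with a co-receptor. In human embryonic stem cells the activin and NODAL branch helps to hold pluripotency, and BMP drives differentiation. Noggin (NOG), chordin (CHRD) and gremlin 1 (GREM1) bind BMPs outside the cell and keep them from their receptors. Twisted gastrulation (TWSG1) joins chordin and BMP in a complex and can act for or against the signal. Follistatin (FST) and follistatin-like 3 (FSTL3) bind activins. Cerberus (CER1) and DAND5 are of the DAN family, to which GREM1 also belongs, and restrain NODAL. BAMBI is not secreted. It is a membrane protein shaped like a type I receptor without the kinase domain, so the common name of secreted antagonists suits 8 of the 9.

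The stretch just before the transcription start is shown for 4 members, whose start sites differ in CpG content, a sequence feature associated with PRC2 targets. PRC2 binding was not measured in these RNA samples, and a link between CpG content and the levels of the members was not tested. RefSeq promoter sequences on GRCh38.p14 matched 8 of the 9 symbols, with 2 start sites for GREM1, and NOG had no entry. Each run below gives the 250 bases before the start, 5′ to 3′ on the gene's strand, with CpG dinucleotides in capitals.
CHRD, chr3:184379804-184380053, plus strand: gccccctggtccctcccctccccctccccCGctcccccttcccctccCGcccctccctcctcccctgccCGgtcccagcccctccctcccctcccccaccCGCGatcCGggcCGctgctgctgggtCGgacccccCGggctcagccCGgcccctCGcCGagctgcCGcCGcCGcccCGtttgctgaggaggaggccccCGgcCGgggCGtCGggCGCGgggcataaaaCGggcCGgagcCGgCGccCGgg
GREM1, chr15:32717754-32718003, plus strand, the upstream of its 2 starts: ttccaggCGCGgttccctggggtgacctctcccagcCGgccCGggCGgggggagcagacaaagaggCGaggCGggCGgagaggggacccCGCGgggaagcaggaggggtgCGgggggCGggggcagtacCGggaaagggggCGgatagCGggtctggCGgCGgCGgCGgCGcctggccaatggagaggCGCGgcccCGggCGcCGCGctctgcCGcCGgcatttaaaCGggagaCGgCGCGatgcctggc
FSTL3, chr19:676142-676391, plus strand: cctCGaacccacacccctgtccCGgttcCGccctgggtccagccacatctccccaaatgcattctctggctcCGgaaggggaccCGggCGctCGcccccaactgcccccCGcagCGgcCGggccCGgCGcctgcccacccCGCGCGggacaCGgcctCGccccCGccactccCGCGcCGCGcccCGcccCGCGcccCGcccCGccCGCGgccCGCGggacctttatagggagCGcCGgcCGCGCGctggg
CER1, chr9:14722734-14722983, minus strand: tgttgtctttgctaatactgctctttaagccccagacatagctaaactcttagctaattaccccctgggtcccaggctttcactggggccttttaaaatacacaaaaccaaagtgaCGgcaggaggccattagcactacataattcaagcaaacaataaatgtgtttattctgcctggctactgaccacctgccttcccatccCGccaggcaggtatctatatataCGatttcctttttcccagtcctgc
CHRD held 27 CpG, the GREM1 starts 32 and 23, FSTL3 36, BAMBI 41, TWSG1 27 and FST 20. CER1 and DAND5 held 3 each. Across 35116 RefSeq promoters of the same length the median was 11, with quartiles of 3 and 23. Thus the stretches before CHRD, BAMBI, FSTL3, TWSG1 and the upstream GREM1 start were CpG-rich, and those before CER1 and DAND5 sat at the lower quartile. Short sequences were searched on both strands. GGCGCC, which contains a CpG, occurred before CHRD, BAMBI, FSTL3 and the upstream GREM1 start, and in 16.4% of all promoters. TATAAA occurred before FSTL3, and in 10.7% of all promoters. AATCCACA occurred before none of the 8, and in 0.709% of all promoters.

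In GENCODE release 44 on GRCh38 all 9 are protein-coding genes. NOG (ENSG00000183691) lies at chr17:56593699-56595611, CHRD (ENSG00000090539) at chr3:184380054-184390736, GREM1 (ENSG00000166923) at chr15:32718004-32745106, TWSG1 (ENSG00000128791) at chr18:9334767-9402420, FST (ENSG00000134363) at chr5:53480626-53487134, FSTL3 (ENSG00000070404) at chr19:676392-683392, DAND5 (ENSG00000179284) at chr19:12965159-12974760 and BAMBI (ENSG00000095739) at chr10:28677510-28682932, all on the plus strand. CER1 (ENSG00000147869) lies on the minus strand at chr9:14719724-14722733. The RefSeq stretch counted above for DAND5, chr19:12969326-12969575, lies inside the GENCODE span of that gene. The bases before the GENCODE start of DAND5 were not examined. CHRD shares 361 exon bases with THPO on the other strand, and GREM1 shares 367 with the antisense RNA GREM1-AS1. The library kit did not mark strand, so reads from these stretches cannot be told apart. THPO was at 2.78 and 3.08 TPM in SUZ12-/- and at 0.16 to 0.65 TPM in the other 10 line samples. In the course THPO was at 0.15 TPM with DOX and at 1.31, 2.26, 1.59, 2.90, 2.47 and 0.47 TPM from day 8 to day 28, above CHRD at days 12 and 16. GREM1-AS1 was at 0 to 2.86 TPM over the 19 samples.

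Values are TPM, transcript abundances corrected for transcript length and library total, and differences are on the log2(TPM + 1) scale, which understates the change of genes near 0. A gene was called when the limma p, adjusted by Benjamini and Hochberg's method, was no more than 0.01 and the fold was 3 or more. A gene entered the tests if 2 or more of the 12 line samples reached 1 TPM. Of the members, 8 did and DAND5 did not. NOG, CHRD and GREM1 passed through the PRC2-null lines alone, so that they had to differ once tested, and the other 5 reached 1 TPM in 4 or more of the 6 samples of the other lines as well. Summed TPM of 8 pluripotency markers was 5098 to 6268 in the other 3 lines and 151 to 471 in the PRC2-null lines, with POU5F1 at 3.62 to 149.79 TPM in the latter. The defining markers of stem cells were thus low in the PRC2-null samples, and markers of other cell types were high: summed TPM of 8 endoderm markers was 471 to 13897 beside 5.64 to 16.53, and of 7 trophoblast markers 225 to 440 beside 12.58 to 15.13. The sum of 9 mesoderm markers was 581 to 1380 beside 63.89 to 163.73, and that of 7 neural ectoderm markers overlapped, at 95.45 to 409.67 beside 95.59 to 198.90. Single genes carried much of these sums in SUZ12-/-, with ACTA2 at 326.20 and 333.66 TPM and AFP at 13208.42 and 13695.33 TPM. There 5 of 9 mesoderm markers were called higher, beside 14.5% of all genes, and KDR and CNN1 were not. Of the 5, 4 were under 1 TPM in all 6 samples of the other lines. All 6 PRC2-null samples reached 1 TPM for 8 of 8 endoderm, 6 of 7 trophoblast, 8 of 9 mesoderm and 6 of 8 pluripotency markers. Of the neural list, PAX6 (0.41 and 0.70 TPM in H1 WT, 5.66 to 128.76 in the PRC2-null samples) and ZIC1 (0.21 and 1.10, then 17.95 to 31.64) were called higher in all 3 PRC2-null lines. They were 2 of 5 tested, beside 16.2% of all genes in EED-/-, 14.5% in SUZ12-/- and 11.6% in EZH2-/-/EZH1-/-. PAX6 was under 1 TPM in all 6 samples of the other lines, so that it passed the filter through the PRC2-null lines alone. SOX1 and NEUROG2 were near 0 in all 12 line samples. These samples are bulk RNA, so fewer cells of a type and less RNA per cell cannot be told apart, and what part the marker changes have in the antagonist changes was not tested. EED itself was at 108.54 TPM in the +DOX sample and at 12.64 to 31.56 TPM after withdrawal. In the EED-/- line it was at 14.25 and 22.36 TPM beside 17.30 and 21.96 TPM in H1 WT, so total TPM of a targeted gene does not check the label.

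The antagonists were higher in the PRC2-null lines. Against H1 WT, 8 of the 8 members tested were called higher in EED-/-, 8 of 8 in SUZ12-/- and 7 of 8 in EZH2-/-/EZH1-/-, where TWSG1 missed both thresholds. The counts and medians include NOG, CHRD and GREM1, which passed the filter through the PRC2-null lines alone. BAMBI, FST, FSTL3, CER1 and TWSG1 reached 1 TPM in the other lines as well. Of these, TWSG1 in EZH2-/-/EZH1-/- alone was not called. The background was 16.2% of 19100 genes called higher in EED-/-, 14.5% in SUZ12-/- and 11.6% in EZH2-/-/EZH1-/-. The median log2 difference of the 8 was 4.36 in EED-/-, 3.33 in SUZ12-/- and 3.82 in EZH2-/-/EZH1-/-, beside 0.36, 0.22 and 0.19 over all genes tested. These 3 comparisons share the 2 H1 WT samples. Each of the 9 members, DAND5 included, had all 6 PRC2-null samples above all 6 samples of the other lines, as did 17.4% of the 27963 genes detected in any of the 12. Summed over the 9, TPM was 45.92 to 61.55 in the other lines and 620.66 to 1697.20 in the PRC2-null lines. BAMBI alone made up 35.1% to 51.5% of the sum in the other lines. Dividing each sample by a median-ratio size factor lowered the median over all genes in EED-/- from 0.36 to 0.07, in SUZ12-/- from 0.22 to 0.09 and in EZH2-/-/EZH1-/- from 0.19 to 0.08, and the counts of 8, 8 and 7 stayed as they were. With only the 4 samples of the lines compared the count in EZH2-/-/EZH1-/- was 3, and in SUZ12-/- it was 5 with its pair averaged as 1 sample and 5 or 6 on leaving out any 1 of the 4 samples compared.

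**Figure D1:**
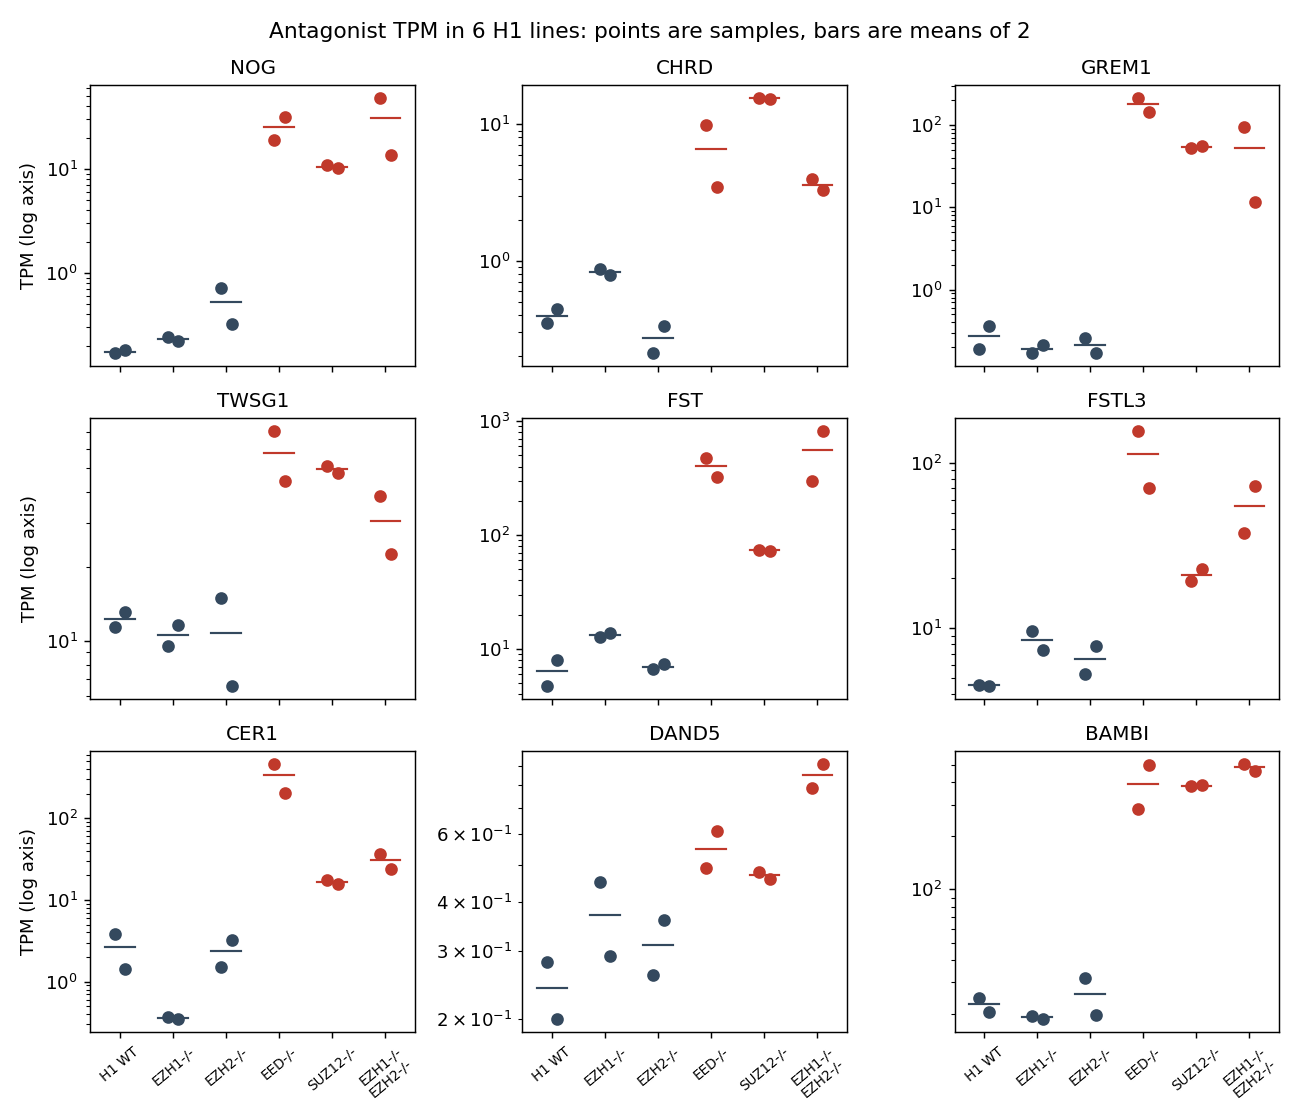
TPM of the 9 antagonists (log axis, 1 panel each) in the 6 lines, with each point a sample and each bar the mean of 2. Dark points are H1 WT, EZH1-/- and EZH2-/-, red points are the 3 PRC2-null lines, and in every panel the 6 red points lie above the 6 dark points, in DAND5 by a narrow margin (0.46 against 0.45 TPM).

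NOG, CHRD and GREM1, which trap BMPs, went from below 1 TPM in all 6 samples of the other lines to 3.28 TPM or more in every PRC2-null sample. NOG was at 0.17 and 0.18 TPM in H1 WT, 0.24 and 0.22 in EZH1-/-, 0.72 and 0.32 in EZH2-/-, 19.11 and 31.64 in EED-/-, 10.96 and 10.13 in SUZ12-/-, and 48.59 and 13.54 in EZH2-/-/EZH1-/-. The PRC2-null samples did not overlap the others, and the EZH2-/-/EZH1-/- pair spread widely. Its log2 difference from H1 WT was 4.45 ± 0.48 (SE, limma adjusted p = 2.8e-05) in EED-/-, 3.30 ± 0.48 (adjusted p = 0.000248) in SUZ12-/- and 4.51 ± 0.48 (adjusted p = 3.61e-05) in EZH2-/-/EZH1-/-.

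GREM1 had the largest log2 difference of the members in EED-/-. It was at 0.19 and 0.36 TPM in H1 WT, 0.17 and 0.21 in EZH1-/-, 0.26 and 0.17 in EZH2-/-, 215.35 and 145.82 in EED-/-, 52.45 and 56.18 in SUZ12-/-, and 93.78 and 11.75 in EZH2-/-/EZH1-/-. The other 3 lines could not be ordered, since their pairs overlapped, and the SUZ12-/- pair fell within the span of the EZH2-/-/EZH1-/- pair. The log2 difference from H1 WT was 7.13 ± 0.68 in EED-/- (SE, limma adjusted p = 1.15e-05), 5.44 ± 0.68 in SUZ12-/- (adjusted p = 8.42e-05) and 4.77 ± 0.68 in EZH2-/-/EZH1-/- (adjusted p = 0.000247).

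CHRD was highest in SUZ12-/-. It was at 0.35 and 0.44 TPM in H1 WT, 0.87 and 0.79 in EZH1-/-, 0.21 and 0.33 in EZH2-/-, 9.81 and 3.46 in EED-/-, 15.67 and 15.45 in SUZ12-/-, and 3.94 and 3.28 in EZH2-/-/EZH1-/-. The SUZ12-/- pair stood above the EED-/- pair, which overlapped the EZH2-/-/EZH1-/- pair. The log2 difference from H1 WT was 3.57 ± 0.36 in SUZ12-/- (SE, limma adjusted p = 2.09e-05), 2.32 ± 0.36 in EED-/- (adjusted p = 0.000382) and 1.72 ± 0.36 in EZH2-/-/EZH1-/- (adjusted p = 0.00318). The EZH2-/-/EZH1-/- call was lost without H1 WT sample 1 (1.68, adjusted p = 0.0266), without H1 WT sample 2 (1.77, adjusted p = 0.0214) and without EZH2-/-/EZH1-/- sample 1 (1.62, adjusted p = 0.0134).

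TWSG1 was already expressed in stem cells and rose less. It was at 11.38 and 13.08 TPM in H1 WT, 9.53 and 11.64 in EZH1-/-, 14.99 and 6.58 in EZH2-/-, 70.92 and 44.56 in EED-/-, 51.15 and 47.96 in SUZ12-/-, and 38.48 and 22.42 in EZH2-/-/EZH1-/-. All 6 PRC2-null samples were above 22 TPM and all others under 15 TPM. The log2 difference from H1 WT was 2.12 ± 0.37 in EED-/- (SE, limma adjusted p = 0.000824) and 1.94 ± 0.37 in SUZ12-/- (adjusted p = 0.00159), and in EZH2-/-/EZH1-/- it was 1.2 ± 0.37, which did not pass (adjusted p = 0.0234). The EED-/- call was lost without EED-/- sample 1 (1.79, adjusted p = 0.0134).

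FST and FSTL3, the activin binders, rose most in EED-/- and EZH2-/-/EZH1-/-. FST was at 4.74 and 7.99 TPM in H1 WT, 12.78 and 13.74 in EZH1-/-, 6.65 and 7.39 in EZH2-/-, 476.80 and 324.34 in EED-/-, 73.93 and 73.04 in SUZ12-/-, and 301.06 and 824.44 in EZH2-/-/EZH1-/-. The SUZ12-/- pair stood apart from both other PRC2-null pairs and from the remaining lines, with no overlap on either side. The log2 difference of FST from H1 WT was 5.78 ± 0.40 in EED-/- (SE, limma adjusted p = 1.47e-06), 3.37 ± 0.40 in SUZ12-/- (adjusted p = 5.91e-05) and 6.12 ± 0.40 in EZH2-/-/EZH1-/- (adjusted p = 1.6e-06).

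FSTL3 was highest in EED-/- and changed on a smaller scale. It was at 4.55 and 4.47 TPM in H1 WT, 9.56 and 7.34 in EZH1-/-, 5.25 and 7.79 in EZH2-/-, 156.55 and 70.17 in EED-/-, 19.23 and 22.79 in SUZ12-/-, and 37.48 and 72.80 in EZH2-/-/EZH1-/-. The EED-/- and EZH2-/-/EZH1-/- pairs overlapped, and the SUZ12-/- pair lay between them and the other lines. The log2 difference of FSTL3 from H1 WT was 4.26 ± 0.40 in EED-/- (SE, limma adjusted p = 1.05e-05), 1.99 ± 0.40 in SUZ12-/- (adjusted p = 0.00196) and 3.27 ± 0.40 in EZH2-/-/EZH1-/- (adjusted p = 8.93e-05).

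CER1, a NODAL and BMP inhibitor of the early endoderm, differed most between the PRC2-null lines. It was at 3.86 and 1.44 TPM in H1 WT, 0.37 and 0.35 in EZH1-/-, 1.5 and 3.20 in EZH2-/-, 463.47 and 203.04 in EED-/-, 17.46 and 15.75 in SUZ12-/-, and 36.64 and 24.17 in EZH2-/-/EZH1-/-. The order EED-/-, EZH2-/-/EZH1-/-, SUZ12-/- had no overlap between neighbours. The log2 difference of CER1 from H1 WT was 6.48 ± 0.45 in EED-/- (SE, limma adjusted p = 1.47e-06), 2.35 ± 0.45 in SUZ12-/- (adjusted p = 0.00141) and 3.16 ± 0.45 in EZH2-/-/EZH1-/- (adjusted p = 0.000244). 3 of the SUZ12-/- calls depended on single samples: CER1, FSTL3 and TWSG1 were not called without H1 WT sample 2 (1.86, 1.98 and 2.03, adjusted p = 0.0201, 0.0161 and 0.0108), without SUZ12-/- sample 1 (2.28, 2.11 and 1.89, adjusted p = 0.0138, 0.0114 and 0.0151) or without SUZ12-/- sample 2 (2.42, 1.88 and 1.98, adjusted p = 0.0103, 0.0197 and 0.0119). FSTL3 and TWSG1 were also not called without H1 WT sample 1 (2.00 and 1.84, adjusted p = 0.0152 and 0.0166).

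DAND5, the other NODAL inhibitor of the DAN family, stayed under 1 TPM in all 19 samples. It was at 0.28 and 0.20 TPM in H1 WT, 0.45 and 0.29 in EZH1-/-, 0.26 and 0.36 in EZH2-/-, 0.49 and 0.61 in EED-/-, 0.48 and 0.46 in SUZ12-/-, and 0.79 and 0.91 in EZH2-/-/EZH1-/-. The groups did not overlap, but the lowest PRC2-null sample was only 0.01 TPM above the highest other sample. With no filter on low values, the log2 difference of DAND5 was 0.32 ± 0.17 in EED-/- (SE, limma adjusted p = 0.18), 0.25 ± 0.17 in SUZ12-/- (adjusted p = 0.318) and 0.58 ± 0.17 in EZH2-/-/EZH1-/- (adjusted p = 0.0281), and none was called. CER1 and DAND5 thus shared a low CpG count in the RefSeq stretches examined and differed in level. The DAND5 stretch lies inside its GENCODE gene span.

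BAMBI, the pseudoreceptor, was the most abundant member in H1 WT and rose to a similar level in the 3 PRC2-null lines. It was at 24.62 and 20.48 TPM in H1 WT, 19.50 and 18.68 in EZH1-/-, 31.71 and 19.78 in EZH2-/-, 284.70 and 500.71 in EED-/-, 379.33 and 387.87 in SUZ12-/-, and 508.42 and 464.42 in EZH2-/-/EZH1-/-. The 3 PRC2-null pairs overlapped in sequence, and the lowest stood well above every other sample. The log2 difference of BAMBI from H1 WT was 4.01 ± 0.27 in EED-/- (SE, limma adjusted p = 1.44e-06), 4.04 ± 0.27 in SUZ12-/- (adjusted p = 1.52e-06) and 4.38 ± 0.27 in EZH2-/-/EZH1-/- (adjusted p = 1.35e-06).

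**Figure D2:**
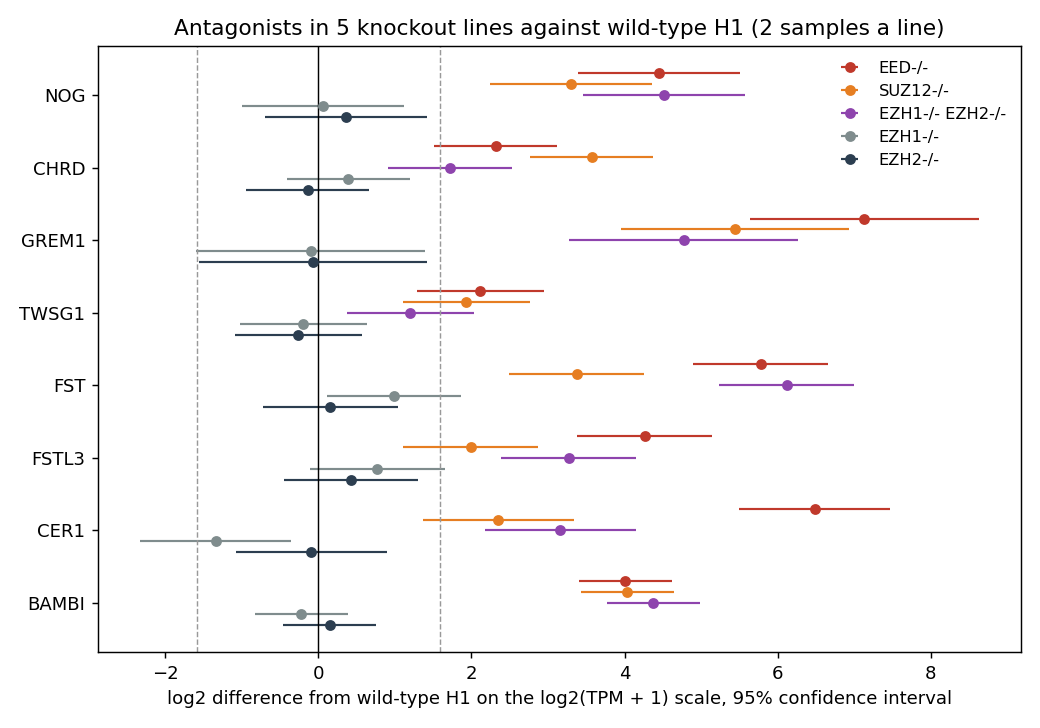
Log2 difference from H1 WT (points, with 95% confidence intervals from limma) of the 8 members tested in 5 knockout lines, with dashed lines at a fold of 3. The PRC2-null lines lie to the right, from 1.2 for TWSG1 in EZH2-/-/EZH1-/- to 7.13 for GREM1 in EED-/-, and the intervals of EZH1-/- and EZH2-/- reach or cross 0 except for FST and CER1 in EZH1-/-.

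Loss of EZH1 or EZH2 alone gave no member call by limma. In EZH1-/- 0 of 8 members were called, beside a background of 0.0995% of all genes in either direction, and FST and CER1 had an unadjusted p under 0.05, as did 16.0% of all genes. FST was 0.99 higher on the log2 scale in EZH1-/- (95% interval 0.11 to 1.87, adjusted p = 0.254) and CER1 differed by -1.34 (-2.33 to -0.35, adjusted p = 0.183). Both EZH1-/- samples lay outside the H1 WT pair for both genes, above it for FST and below it for CER1. In EZH2-/- 0 of 8 were called, beside a background of 0%, and 0 had an unadjusted p under 0.05, as did 5.81% of all genes. The intervals of the 8 in EZH2-/- reached from -1.56 to 1.43, both of them for GREM1, and the narrowest was that of BAMBI, from -0.45 to 0.76. NOG, GREM1 and CHRD were under 1 TPM in these lines, where the log2(TPM + 1) scale compresses any difference.

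The EZH2-/-/EZH1-/- line was also set against EZH2-/-, with which it shares the EZH2 knockout. Of the 8 members 7 were higher, beside a background of 12.1%, and TWSG1 differed by 1.47 ± 0.37 (SE, limma adjusted p = 0.00903), under the fold of 3. NOG, CHRD and GREM1, among the 7, passed the filter through the PRC2-null lines alone, and FST, FSTL3, BAMBI and CER1 did not. FST differed most, by 5.96 ± 0.40 (adjusted p = 1.96e-06), GREM1 by 4.84 ± 0.68 (adjusted p = 0.000235), BAMBI by 4.22 ± 0.27 (adjusted p = 1.75e-06) and NOG by 4.16 ± 0.48 (adjusted p = 6.49e-05). CER1 differed by 3.25, FSTL3 by 2.85 and CHRD by 1.86. The call of CHRD was lost without EZH2-/- sample 1 (1.79, adjusted p = 0.0152) or sample 2 (1.93, adjusted p = 0.0114), and TWSG1 was called without EZH2-/- sample 1 (2.00, adjusted p = 0.0029) or EZH2-/-/EZH1-/- sample 2 (1.84, adjusted p = 0.00523).

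The PRC2-null lines differed from each other in 4 members. CER1 (-4.13 ± 0.45, SE, limma adjusted p = 0.000144), FST (-2.40 ± 0.40, adjusted p = 0.00194) and FSTL3 (-2.27 ± 0.40, adjusted p = 0.00269) were lower in SUZ12-/- than in EED-/-, beside 2.58% of all genes called lower. Against EZH2-/-/EZH1-/-, FST was lower in SUZ12-/- (-2.75 ± 0.40, adjusted p = 0.00112), beside 1.14% of all genes, and CHRD was higher (1.85 ± 0.36, adjusted p = 0.00673), beside 3.32%. The EZH2-/-/EZH1-/- and EED-/- lines had 0 of 8 members called between them by limma, beside 0.089% of all genes in either direction, while CER1, GREM1, FSTL3 and TWSG1 had an unadjusted p under 0.05, as did 20.1% of all genes. For CER1 the difference between EZH2-/-/EZH1-/- and EED-/- was -3.32 (adjusted p = 0.0126), which became a call without EED-/- sample 2 (-3.92, adjusted p = 0.00624) or EZH2-/-/EZH1-/- sample 1 (-3.61, adjusted p = 0.00329). Without EZH2-/-/EZH1-/- sample 1, GREM1 was called too (-3.81 against EED-/-, adjusted p = 0.000392). The BAMBI difference was 0.02 between SUZ12-/- and EED-/- (95% interval -0.58 to 0.63) and 0.36 between EZH2-/-/EZH1-/- and EED-/- (-0.24 to 0.97).

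The 2 SUZ12-/- samples were closer to each other than those of any other line, with a median absolute log2 ratio of 0.089 over genes at 10 TPM or more in the pair, beside 0.134 to 0.461 in the other lines. Their titles name different clones, and depth is unknown, so whether they differ by more than sampling noise could not be computed. With the pair averaged and counted as 1 sample, FST (adjusted p = 0.0194) and FSTL3 (adjusted p = 0.0253) were not called against EED-/-, while CER1 was, and FST (adjusted p = 0.0136) and CHRD (adjusted p = 0.056) were not called against EZH2-/-/EZH1-/-. Leaving out either SUZ12-/- sample had the same effect on these calls (adjusted p of 0.0188 to 0.0306 against EED-/- and 0.0131 to 0.0559 against EZH2-/-/EZH1-/-). Without EED-/- sample 1, FST (-2.13, adjusted p = 0.0279) and FSTL3 (-1.70, adjusted p = 0.0292) were not called against EED-/-, while CHRD became a call (1.89, adjusted p = 0.00288). Against EZH2-/-/EZH1-/-, leaving out its sample 2 ended the CHRD call (1.75, adjusted p = 0.031) and gave one for NOG (-2.10, adjusted p = 0.00357), and leaving out its sample 1 gave one for GREM1 (2.12, adjusted p = 0.000899). The SUZ12-/- line also held AFP, a yolk sac and liver gene, at 13208 and 13695 TPM, beside 163 to 768 TPM in EED-/- and 183 to 201 TPM in EZH2-/-/EZH1-/-, and its part in these differences was not tested.

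After DOX withdrawal, NOG, CHRD, GREM1 and BAMBI were each higher at days 20, 24 and 28 than at days 8, 12 and 16, with no overlap, as were 15.6% of the 24377 genes detected in any of the 7 samples. NOG was at 0.36 TPM with DOX and then at 1.36, 0.50, 0.42, 6.08, 30.01 and 59.08 TPM from day 8 to day 28. GREM1 was at 0.09 TPM with DOX and then at 0.02, 0.97, 0.99, 3.52, 46.00 and 44.50 TPM. Both were low up to day 16 and at 30 TPM or more from day 24. BAMBI, at 18.16 TPM with DOX, was at 16.13, 32.28, 35.86, 472.22, 808.36 and 539.99 TPM. Its largest step between neighbouring days fell between day 16 and day 20, the window in which the pluripotency marker sum went from 5852 to 2613 TPM. Summed TPM of the endoderm markers was 12.29 to 89.75 on the early days and 475.98 to 829.63 on the late days, and of the trophoblast markers 14.29 to 51.95 and 128.50 to 595.43, and the part of these changes in the antagonist levels was not tested.

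With 1 sample a day, the days were tested as a trend, given as the fitted log2 change over the 20 days from day 8 to day 28, and as late against early days. GREM1 was the member called in the trend (6.04 ± 0.91, SE, limma adjusted p = 0.00996), beside 1.35% of 17245 genes called higher. BAMBI (6.06 ± 0.97, adjusted p = 0.0115) and NOG (5.54 ± 1.07, adjusted p = 0.0178) did not pass. BAMBI was the member called between late and early days (4.42 ± 0.34, adjusted p = 0.00152), beside 0.963% of genes called higher. NOG (3.79 ± 0.73, adjusted p = 0.0267) and GREM1 (3.75 ± 0.88, adjusted p = 0.0451) did not pass. A gene entered the course tests if 2 or more of the 7 samples reached 1 TPM. GREM1 did so at days 20, 24 and 28 alone, and NOG at those days and day 8, so both passed through the late days where they are high and had to differ once tested. The GREM1 trend sat at the threshold and was not called without day 8, 12, 16, 24 or 28 (5.31 to 6.81, adjusted p = 0.0118 to 0.062), and BAMBI was not called without day 8, 12 or 24 (4.08 to 4.56, adjusted p = 0.0109 to 0.0177). Without day 20, NOG (4.66, adjusted p = 0.000303) and GREM1 (4.86, adjusted p = 0.000193) joined BAMBI in the late against early call, with the same limit from the filter.

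**Figure D3:**
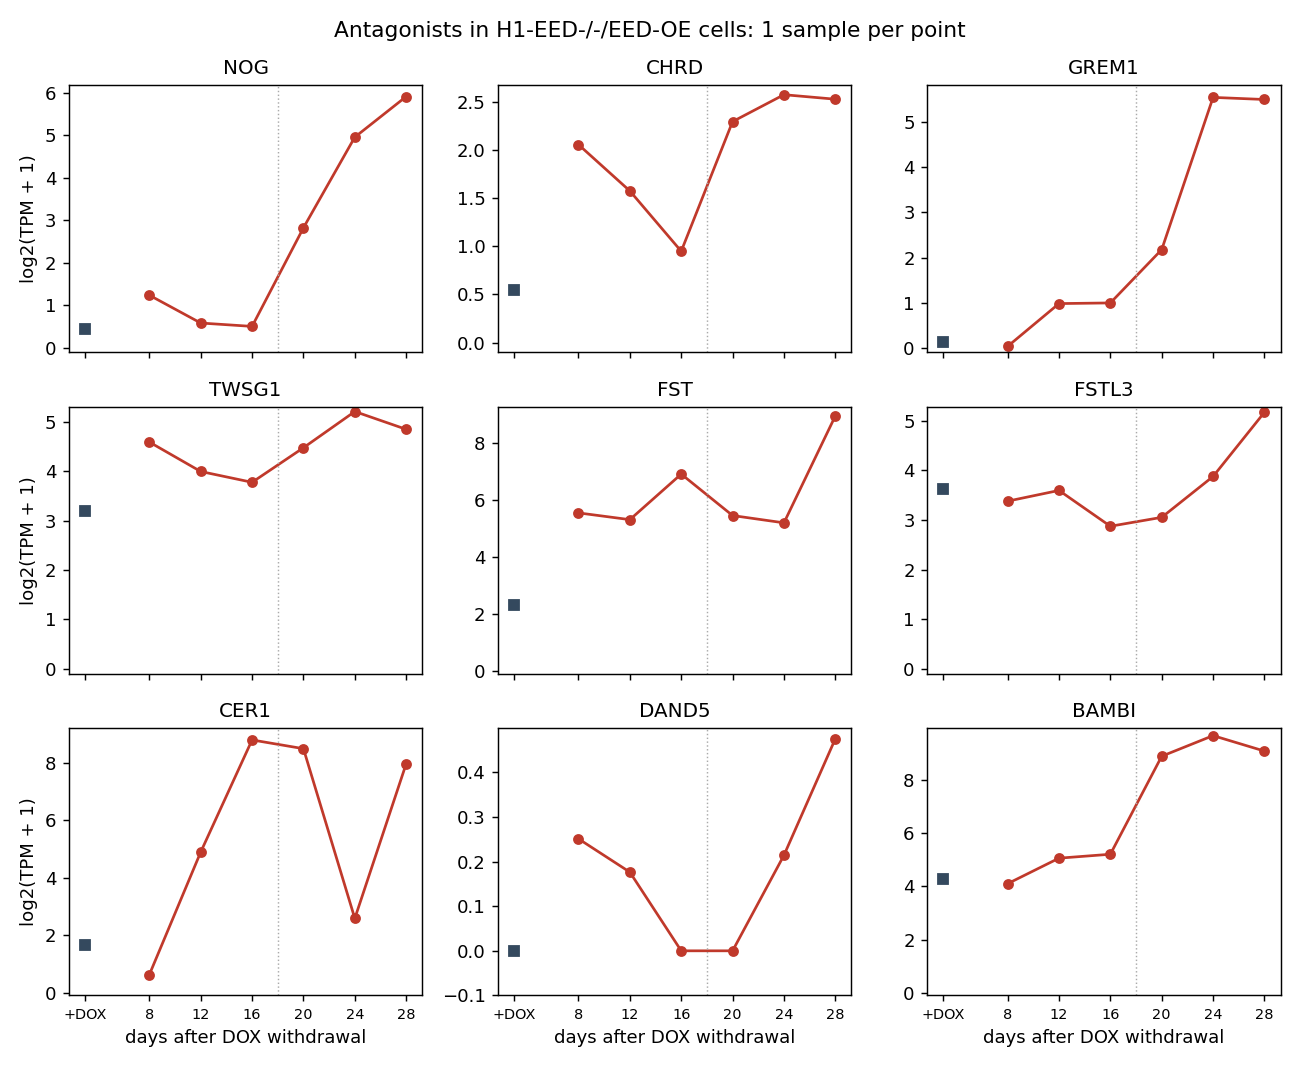
Antagonist levels as log2(TPM + 1) in H1-EED-/-/EED-OE cells with DOX (square) and at 6 days after withdrawal (circles), 1 sample per point, with a dotted line between days 16 and 20. NOG, GREM1 and BAMBI are higher after day 16 than before, FST is above the +DOX sample from day 8, CER1 has a peak of 441.59 TPM at day 16, and the DAND5 axis ends under 1.

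CHRD and TWSG1, which act in 1 complex, had smaller differences over the course. CHRD was at 0.46 TPM with DOX and then at 3.16, 1.98, 0.93, 3.91, 4.96 and 4.77 TPM, and TWSG1 was at 8.23 TPM and then at 23.14, 14.97, 12.72, 21.29, 36.06 and 27.87 TPM. Both were lower at day 16 than at day 8 and higher again from day 20, and all 6 days of each lay above the +DOX sample, as did those of THPO, with which CHRD shares exon bases. The trend was 0.96 ± 0.65 for CHRD (SE, limma adjusted p = 0.32) and 0.80 ± 0.50 for TWSG1 (adjusted p = 0.28), which did not pass. CHRD stayed under 5 TPM throughout, below the 15.45 TPM of the lower SUZ12-/- sample.

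FST and FSTL3 parted over the course. FST was at 4.03 TPM with DOX and at 45.82, 38.73, 119.41, 42.90, 35.76 and 493.87 TPM from day 8 to day 28. FSTL3 was at 11.29 TPM with DOX and at 9.39, 11.07, 6.32, 7.29, 13.67 and 34.94 TPM. FST was thus above its +DOX level by day 8 and above every sample of the other 3 lines on all 6 days, and FSTL3 exceeded its +DOX level at days 24 and 28 alone. The FST trend (2.17 ± 1.23, SE, limma adjusted p = 0.243) rested on day 28, without which it was -0.28, and the FSTL3 trend (1.43 ± 0.68, adjusted p = 0.17) did not pass.

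CER1 was already high at day 16, while the pluripotency marker sum was still 5852 TPM, and its levels did not follow the order of the days. It was at 2.12 TPM with DOX and then at 0.54, 28.63, 441.59, 357.52, 4.98 and 247.96 TPM. Its trend was 4.21 ± 3.01 (SE, limma adjusted p = 0.35) and was -0.03 without day 8. NODAL, which CER1 binds, was at 1.85, 85.03, 275.84, 50.30, 5.40 and 57.02 TPM on the same days. MIXL1, EOMES and T, genes of the primitive streak chosen here after their values were seen, were highest at days 16 and 20: MIXL1 at 302.70 and 164.23 TPM, EOMES at 115.27 and 96.57 TPM, and T at 124.59 and 185.95 TPM. NODAL and these 3 genes were lower again at day 24, with MIXL1 at 3.08 TPM, EOMES at 15.96 TPM and T at 0.74 TPM. POU5F1 was still at 3356 TPM at day 16 and at 1580 TPM at day 20, and was at 46.24 TPM at day 24. The NODAL inhibitor LEFTY2, at 179.05 TPM at day 20, was also highest in that window. In the EED-/- line, where CER1 was at 203.04 and 463.47 TPM, NODAL was at 34.20 and 38.13 TPM, EOMES at 9.69 and 18.51 TPM, MIXL1 at 1.85 and 2.15 TPM and T at 1.56 and 3.74 TPM. Of these NODAL and EOMES were called higher than in H1 WT, beside 16.2% of all genes. EOMES was under 1 TPM in all 6 samples of the other lines, so that it passed the filter through the PRC2-null lines alone. DAND5 was at 0, 0.19, 0.13, 0, 0, 0.16 and 0.39 TPM from the +DOX sample to day 28.

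**Figure D4:**
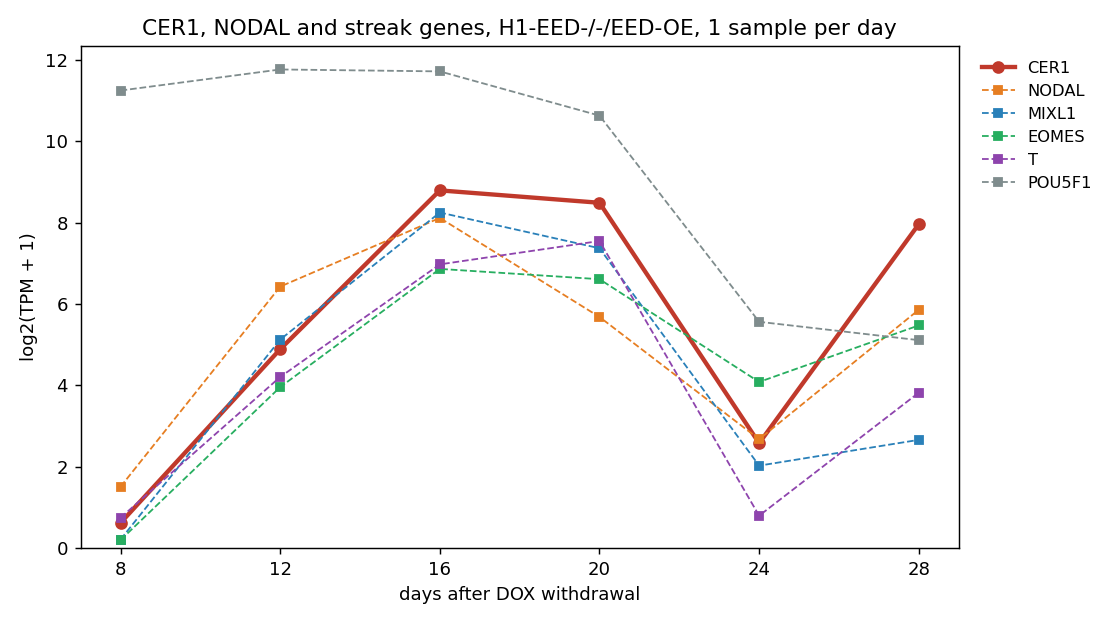
CER1 (thick line), NODAL, 3 primitive streak genes and POU5F1 as log2(TPM + 1) over 6 days after DOX withdrawal, 1 sample per day. CER1, NODAL, MIXL1 and EOMES were highest at day 16 and T at day 20, all 5 were lower at day 24 than at day 20, and POU5F1 went from 1580 to 46.24 TPM between those days.

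Among each other the members moved more alike across lines than across days. Over the 12 line samples Pearson's r of log2(TPM + 1) was 0.96 for NOG with GREM1, 0.97 for NOG with BAMBI, 0.96 for GREM1 with TWSG1 and 0.96 for FST with FSTL3. Over the 7 H1-EED-/-/EED-OE samples it was 0.96 for NOG with GREM1, 0.97 for CHRD with TWSG1, 0.47 for FST with FSTL3 and 0.01 for CER1 with FSTL3. The line samples fall into 2 clusters by genotype, so these values describe that split and carry no test. The 3 genes most like each member over the 12 line samples had r of 0.98 to 1.00. For GREM1 they were LRRN4, ZEB1 and COL4A1, with r of 0.93, 0.99 and 0.99 over the 7 course samples. For BAMBI they were PMP22, EPHA3 and S100A10 (0.99, 0.55 and 0.96 over the course), and for NOG PLCL1, LGR5 and ZNF804A (0.96, 0.88 and 0.96). For CHRD they were EMILIN1, TMEM119 and LTK (0.63, 0.70 and 0.90), and for TWSG1 MON2, HERC4 and HIPK3 (0.90, 0.93 and 0.91). For FST they were CCND2, PPP1R15A and CTD-2377D24.6 (0.62, 0.46 and 0.47), for FSTL3 SQSTM1, QPCT and MAPK11 (0.93, 0.19 and 0.72), and for CER1 LIMK2, TXNDC5 and ANKLE2 (0.55, 0.25 and 0.31). The genes like GREM1, NOG and TWSG1 across lines thus stayed alike over the course, and those like CER1 did not.

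BMP ligand genes were higher in the same samples. Of 11 BMP ligand genes tested, 9 were higher in EED-/-, 6 in SUZ12-/- and 8 in EZH2-/-/EZH1-/-, and none was lower, beside the backgrounds of 16.2%, 14.5% and 11.6% called higher. Of those called, 5, 3 and 4, GDF6 among them, were under 1 TPM in all 6 samples of the other lines, so that they passed the filter through the PRC2-null lines alone. BMP4 was at 2.50 and 3.25 TPM in H1 WT and at 92.47 to 293.44 TPM in the PRC2-null samples (5.18 ± 0.49 in EED-/-, SE, limma adjusted p = 1.17e-05), and BMP2 went from 1.51 and 1.79 TPM to 28.96 to 81.18 TPM (4.19 ± 0.41, adjusted p = 1.35e-05). BMP6 was at 6.64 and 7.57 TPM in SUZ12-/- and at 23.44 to 125.21 TPM in the other PRC2-null lines, and GDF6 was at 17.71 to 55.19 TPM in all 3. Sums over the genes were higher on both sides: NOG, CHRD and GREM1 summed to 0.71 to 1.28 TPM in the other lines and 28.57 to 244.27 TPM in the PRC2-null lines, and 14 BMP ligand genes to 13.88 to 51.90 and 287.78 to 644.35 TPM. The ratio of the trap sum to the ligand sum was 0.0158 to 0.0706 in the other lines, and 0.0993 in the lowest and 0.65 in the highest PRC2-null sample. Over the course that ratio was 0.0496 with DOX, 0.0819, 0.0541, 0.034 and 0.032 at days 8 to 20, and 0.139 and 0.251 at days 24 and 28, so that it was at its lowest when the ligand sum had reached 422 TPM at day 20. Both are RNA sums that weigh every gene alike, and the ligand sum takes all 14 listed genes, whether or not these traps bind each.

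**Figure D5:**
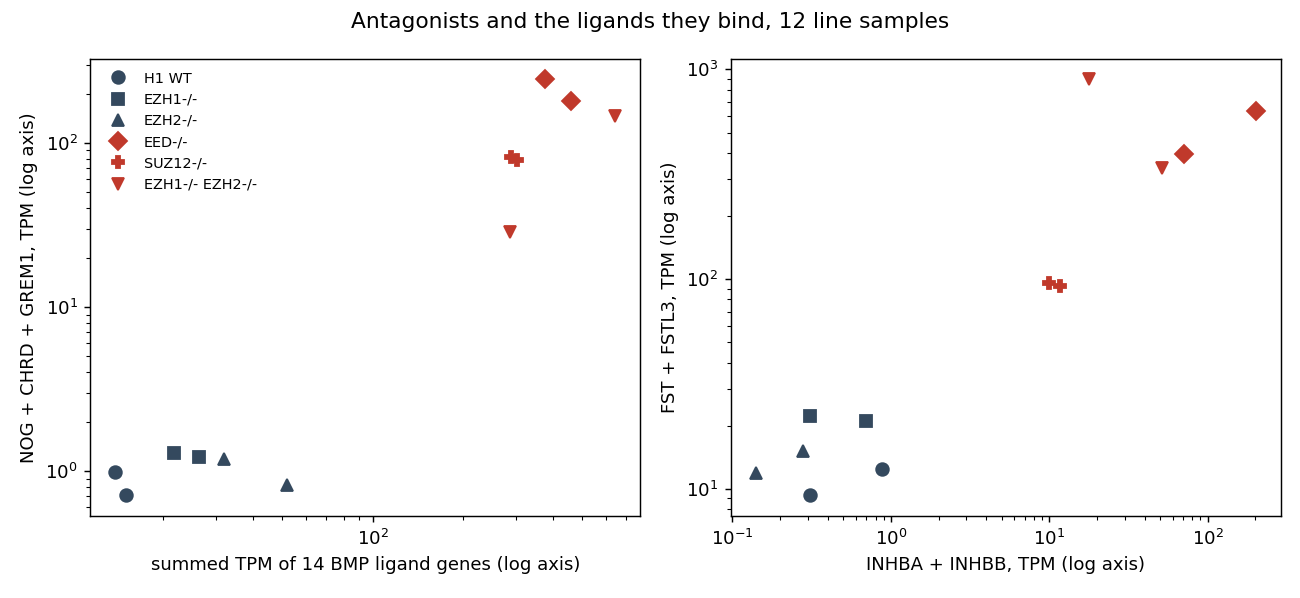
Left, summed TPM of NOG, CHRD and GREM1 against that of 14 BMP ligand genes, and right, FST and FSTL3 against INHBA and INHBB, in the 12 line samples (log axes, 1 point per sample, red for the PRC2-null lines). The red points lie above and to the right of the dark points in both panels, from 28.57 TPM upward on the left and from 93.16 TPM upward on the right.

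Of the activin subunit genes, INHBA was called higher in the PRC2-null lines, and like the BMP traps it was under 1 TPM in all samples of the other lines. INHBA, the activin A subunit, was at 0.28 and 0.84 TPM in H1 WT, 199.78 and 70.95 in EED-/-, 11.51 and 9.84 in SUZ12-/-, and 51.02 and 17.46 in EZH2-/-/EZH1-/- (6.29 ± 0.53 in EED-/-, SE, limma adjusted p = 5.09e-06). NODAL was higher in EED-/- (1.75 ± 0.40, adjusted p = 0.00404), with a difference of 0.03 in SUZ12-/- (adjusted p = 0.965) and 1.22 in EZH2-/-/EZH1-/- (adjusted p = 0.03), and its difference between SUZ12-/- and EED-/- was -1.72 (adjusted p = 0.0126), which did not pass. INHBB stayed under 0.5 TPM in all 12 line samples, and INHBC was at 0 in the 6 PRC2-null samples. INHBE, another activin subunit gene, was lower in EED-/- (-2.15, adjusted p = 0.00171) and SUZ12-/- (-2.46, adjusted p = 0.000783). In EZH1-/- it was at 55.93 and 94.87 TPM beside 12.66 and 13.57 TPM in H1 WT (2.39, adjusted p = 0.0337), which did not pass. Of 7 genes tested in this list 2 were higher and 1 lower in EED-/-, 1 and 1 in SUZ12-/-, and 1 and 0 in EZH2-/-/EZH1-/-. Over all genes 16.2%, 14.5% and 11.6% were called higher and 6.09%, 5.21% and 5.66% lower, in the same order. FST and FSTL3 together were above INHBA and INHBB together in every line sample, by a ratio of 14.2 to 85.0 in the other lines and of 3.16 to 50.2 in the PRC2-null lines, where the ranges overlap.

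Of 12 other extracellular antagonists tested, 5 were higher and 1 lower than H1 WT in each PRC2-null line, beside 16.2%, 14.5% and 11.6% of all genes called higher and 6.09%, 5.21% and 5.66% called lower, so that the 1 lower gene is near the background. BMPER was higher in EED-/- by 2.92 ± 0.44 (SE, limma adjusted p = 0.000267), NBL1 by 2.79 ± 0.32 (adjusted p = 4.08e-05), FSTL1 by 2.58 ± 0.41 (adjusted p = 0.000384) and LEFTY2 by 2.09 ± 0.56 (adjusted p = 0.00976). CHRDL1, a chordin relative named here after its values were seen, was the gene that was lower, at 12.40 and 15.30 TPM in H1 WT and 1.06 to 4.76 TPM in the PRC2-null samples. Of the 3 proteinases that cleave chordin, BMP1 and TLL1 were higher in all 3 PRC2-null lines. BMP1 went from 2.00 and 3.37 TPM in H1 WT to 56.33 to 228.77 TPM (5.61 ± 0.28 in EED-/-, adjusted p = 2.11e-07), and TLL1 from 0.09 and 0.17 TPM to 2.66 to 9.28 TPM. TLL1 and the receptor gene ACVRL1 were also under 1 TPM in all 6 samples of the other lines.

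Of 14 receptor and co-receptor genes tested, 5 were higher and 1 lower in EED-/-, 5 and 2 in SUZ12-/-, and 4 and 1 in EZH2-/-/EZH1-/-. Beside these, 16.2%, 14.5% and 11.6% of all genes were called higher and 6.09%, 5.21% and 5.66% lower, in the same order. The share lower was near that background in EED-/- and EZH2-/-/EZH1-/-, and above it in SUZ12-/-, where RGMA and TDGF1 were lower. BMPR1B, called higher in EED-/- and EZH2-/-/EZH1-/-, was under 1 TPM in all 6 samples of the other lines. TDGF1, the NODAL co-receptor and a stem cell marker, fell by 5.46 ± 0.50 on the log2 scale in EED-/- (SE, limma adjusted p = 9.56e-06), from 938.58 and 1179.69 TPM to 20.80 and 25.44 TPM. ACVRL1 (4.82 ± 0.43, adjusted p = 7.49e-06), ENG (3.90 ± 0.32, adjusted p = 4.62e-06) and the type II BMP receptor BMPR2 (3.36 ± 0.36, adjusted p = 2.46e-05) rose in EED-/-. Of the genes that BMP signals are known to induce, most were higher: 8 of 13 in EED-/-, 10 of 13 in SUZ12-/- and 10 of 13 in EZH2-/-/EZH1-/-, and none lower, beside backgrounds of 16.2%, 14.5% and 11.6% called higher. Of those called, 5, 6 and 6 were under 1 TPM in all 6 samples of the other lines and passed the filter through the PRC2-null lines alone, as TBX3, MSX1 and GATA3 did. The ID genes, which BMP signals induce directly, were not called in EED-/-, with log2 differences of 0.44 for ID1 (adjusted p = 0.241), 0.74 for ID2 (adjusted p = 0.26), 0.04 for ID3 (adjusted p = 0.917) and 1.58 for ID4 (adjusted p = 0.0172). ID1 and ID3 were called in none of the 3 lines, ID2 in SUZ12-/- and ID4 in SUZ12-/- and EZH2-/-/EZH1-/-. TBX3 was at 0 and 0.05 TPM in H1 WT and at 33.07 to 79.95 TPM in the PRC2-null samples, MSX2 at 0.81 and 1.06 beside 32.48 to 70.97 TPM, MSX1 at 0.17 and 0.48 beside 25.95 to 51.31 TPM, and GATA3, also a trophoblast marker, at 0.07 and 0.22 beside 18.31 to 36.43 TPM. None of the genes in these 6 lists was called in EZH1-/- or EZH2-/- by limma. Between late and early days after withdrawal, 3 of 9 BMP ligand genes (BMP2, BMP4 and BMP5) and 4 of 13 response genes (GATA3, MSX1, MSX2 and TBX3) were called higher, beside 0.963% of all genes, and BMP5 reached 1 TPM on the late days alone.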

How the data were processed

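RNA-seq was measured in 19 samples. The authors prepared libraries with a kit that does not mark strand, used Bowtie2 and RSEM with an mRNA reference of GRCh38 (hg38), and deposited the resulting TPM per gene. The submitters' processing notes also name hg19, with no role given. The TPM columns sum to between 999999.2 and 1000001.0, so depth is unknown, no counting interval is given and precision rests on replicates. The thresholds, an FDR of 1% and a fold of 3, follow the study's methods, and since TPM do not suit a count model, limma 3.58.1 in R 4.3.3 was used.

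log2(TPM + 1) of the 19100 genes reaching 1 TPM in 2 or more line samples (of 12) was fitted with a mean per line (6 residual degrees of freedom, eBayes with trend and robust), and that of 17245 genes reaching 1 TPM in 2 or more course samples (of 7) over the 6 days after withdrawal (4 residual degrees of freedom). p-values were adjusted over all genes fitted. They measure the spread between the samples of a line, and for the course the spread between days. The scripts were tested on simulated data. The members, gene lists and tests were chosen with earlier results of these data known. For each tested member the 3 genes of highest Pearson r over the 12 line samples were named, and of each list up to 4 called genes with the largest log2 difference in EED-/-. HJV and TBXT were not matched by symbol, the latter being listed as T. Alternatives were the pseudocount, the filter, the thresholds, a fit of 4 samples, a rescaling, the replicate number as a block and leaving out samples. Promoters came from RefSeq (GRCh38.p14) and coordinates from GENCODE release 44.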

Additional observations from a re-analysis of the deposited data

Results flagged for a closer look

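A few antagonists differed between PRC2-null lines in a direct test of the difference, which equals the difference of their changes from the shared H1 WT samples (limma, 2 samples a line, fitted with all 12 line samples). CER1 was lower in SUZ12-/- than in EED-/- by a log2 difference of -4.13 (adjusted p = 0.000144), FST by -2.40 (adjusted p = 0.00194) and FSTL3 by -2.27 (adjusted p = 0.00269). Against EZH2-/-/EZH1-/-, FST was lower in SUZ12-/- (-2.75, adjusted p = 0.00112) and CHRD was higher (1.85, adjusted p = 0.00673). In each case the 2 samples of the lines compared did not overlap. With the SUZ12-/- pair counted as 1 sample, CER1 alone was still called.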

How the results depend on the processing

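With 2 samples a line and 1 a day, the calls near the threshold depend on the setting. Over the alternatives run, the members kept their direction against H1 WT in the 3 PRC2-null lines in 248 of 248 values, with 23 calls lost and 1 gained. Of 114 counts of members called, 83 stayed within 1.5 times.

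With a pseudocount of 0.1 or with no filter on low values, 1 member was called between SUZ12-/- and EZH2-/-/EZH1-/- in place of 2, and with no filter 0 in the trend in place of 1. With only the 4 samples of the lines compared, 3 in place of 7 were called in EZH2-/-/EZH1-/- against H1 WT, and 0 between SUZ12-/- and EZH2-/-/EZH1-/-. At an FDR of 5% and no fold cutoff, 1 was called between EZH2-/-/EZH1-/- and EED-/-, 3 in the trend and 3 between late and early days. Median-ratio scaling, or the +DOX sample added as day 0, left 0 in the trend. With the SUZ12-/- pair averaged as 1, a choice made after seeing the data, 5 were called against H1 WT, 1 against EED-/- and 0 against EZH2-/-/EZH1-/-. The cause of these shifts was not tested.

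Leaving out 1 sample gave 5 to 6 members called in SUZ12-/- against H1 WT, 1 to 3 between SUZ12-/- and EED-/-, 0 to 3 between SUZ12-/- and EZH2-/-/EZH1-/-, and 0 to 2 between EZH2-/-/EZH1-/- and EED-/-. Where an arm kept 1 sample, that sample was assumed to vary like the other lines. Leaving out 1 day gave 0 to 1 in the trend and 0 to 3 between late and early days. The CER1 trend ranged from -0.0341 to 6.78 and its late against early difference from -0.50 to 3.59, and for FST these ranged from -0.28 to 3.20 and from -0.60 to 1.28, so neither direction is settled.

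The replicate numbers follow accession order and do not pair the samples (r of deviations from -0.12 to 0.22 over 15 pairs of lines, over 0.1 in 1). With the replicate block, 8, 8 and 7 members were called in EED-/-, SUZ12-/- and EZH2-/-/EZH1-/- against H1 WT, 0 in EZH1-/- and in EZH2-/-, and 3, 0, 2 and 7 in the comparisons between knockout lines, as without it.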
